A study of Mus musculus with 17 samples.

Results

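The genes described here share low levels in FOXA2-positive cells and are not among the classic regulators of pluripotency. They are Aqp3, Spp1, Sfn, Mylpf, Gpx4, Chchd10, Elf3, Fabp3, Hspb1 and Gadd45g. These are 10 of the 49671 genes counted in the series, and all 10 were among the 17813 genes with enough counts to be tested. They were picked because their levels were lower in FOXA2-positive than in FOXA2-negative libraries. That difference therefore defines the genes, and it is given below as a description with no test. The choice was not made on how the genes differed between treatments within a fraction, nor on the other genes of their families. Both could be tested, though the choice used the same libraries.

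The libraries came from R1 mouse embryonic stem cells with a FOXA2-Venus reporter, in a study of floor plate formation in neural tube organoids. All 17 libraries share this line and 18 hours of retinoic acid (RA), the signal made from vitamin A that gives neural tissue a posterior identity. BMP4 cells were then left untreated for 6 hours and given the growth factor BMP4 for 8 hours. LDN cells had the same 6 hours and then 8 hours of an agent that the labels name only LDN. For RA cells the 18 hours alone are stated, so in any comparison with RA the agent and the time since RA began cannot be told apart. Cells sorted as FOXA2-positive and as FOXA2-negative were profiled for each treatment, in 3 libraries a group except LDN FOXA2-positive, which held 2 (numbered 2 and 3). All cells are of 1 reporter line. Since no source says whether libraries of a group are separate cultures, p-values cover only the spread among these libraries, which may be technical.

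FOXA2, a transcription factor of the forkhead family, is made in the endoderm and in the floor plate, a strip of cells along the lower midline of the developing spinal cord. As embryonic stem cells turn into neural progenitors they switch off genes of the pluripotent state and of early epithelia. The 10 genes belong to no single pathway. Aqp3 and Spp1 make a membrane channel and a secreted matrix protein, Elf3 and Sfn are known from epithelia, and Mylpf is a muscle gene. Gpx4, Chchd10 and Fabp3 act on lipid peroxides, in mitochondria and on fatty acids, and Hspb1 and Gadd45g belong to stress responses.

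Each library held 8435845 to 10796136 counts on genes (median 9785138) and showed 16139 to 18457 genes. Levels are in CPM (counts scaled to a common library total) with TMM factors, and are listed by library number. Foxa2, which checks the sort, lay at 22.6 to 27.5 CPM in BMP4 FOXA2-positive and 0.108 to 1.75 CPM in BMP4 FOXA2-negative libraries, at 39.7 to 44.2 and 0 to 2.93 CPM in LDN, and at 18.4 to 30.9 and 0.22 to 0.418 CPM in RA. Of the other floor plate markers, Shh was at 0 in the FOXA2-positive libraries of BMP4 and RA. Both RA libraries numbered 1 stood apart in their share of mitochondrial counts, at 7.43% in the FOXA2-positive and 6.94% in the FOXA2-negative library, against 4.81% or less in the other libraries.

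The 10 genes summed to 488 to 530 CPM in BMP4 FOXA2-positive libraries, against 1300 to 2180 CPM in BMP4 FOXA2-negative libraries. In LDN the sums were 369 to 391 CPM in FOXA2-positive libraries, against 1430 to 2110 CPM in FOXA2-negative ones. In RA they were 445 to 636 CPM in FOXA2-positive libraries, against 1660 to 2110 CPM in FOXA2-negative ones. A FOXA2-positive group kept between 1.6% and 54.3% of the FOXA2-negative mean, depending on gene and treatment, with a median over the 10 genes of 25.1% in BMP4, 15.3% in LDN and 20% in RA. In bulk libraries, fewer cells with a transcript and less transcript per cell cannot be told apart.

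**Figure D1:**
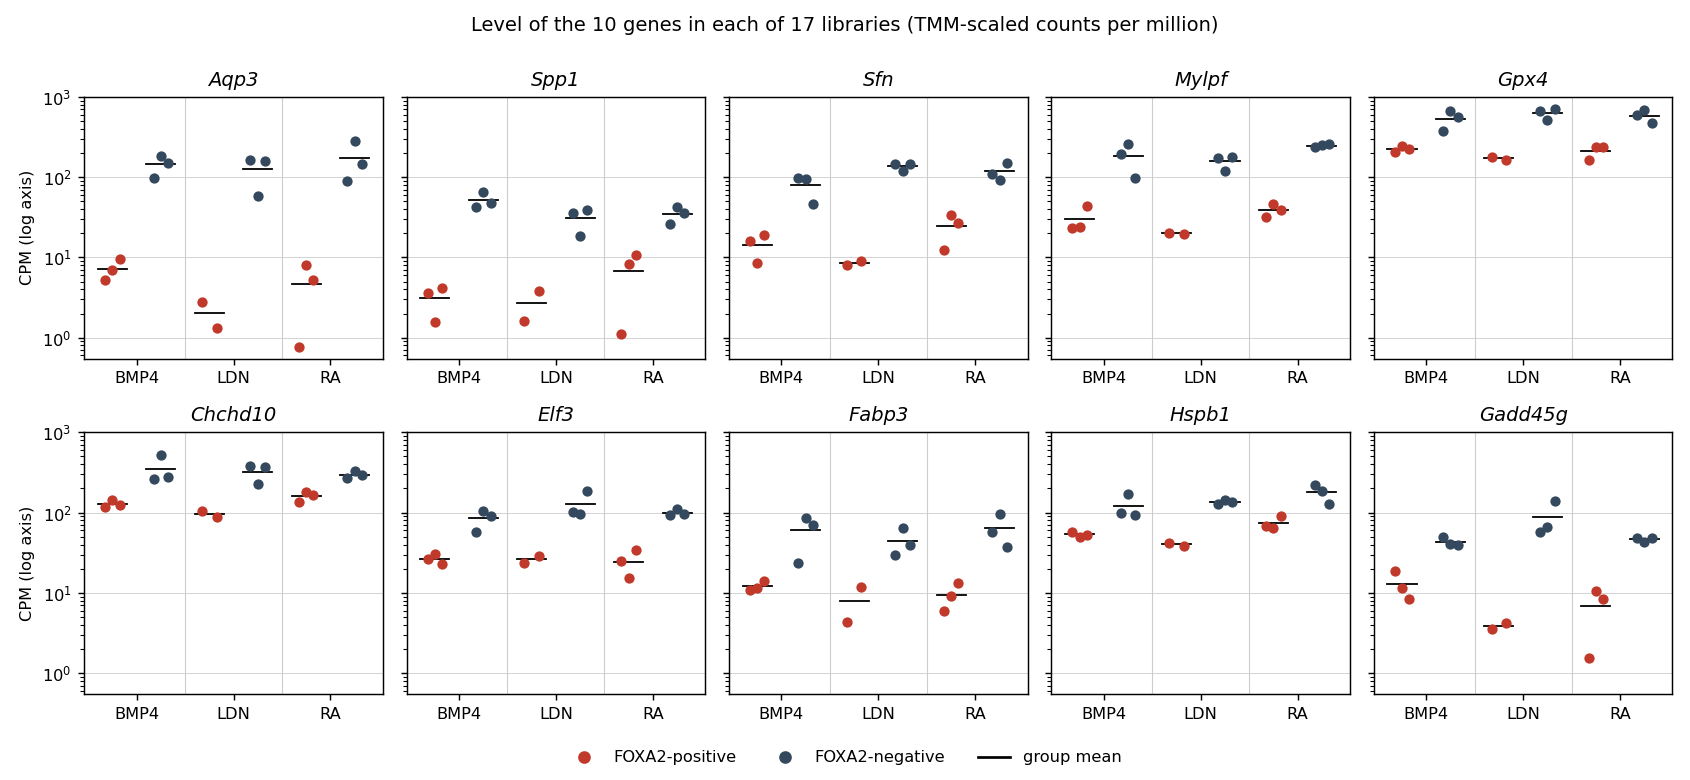
Level of each of the 10 genes in each library, as TMM-scaled CPM on a log axis, with BMP4, LDN and RA from left to right and the FOXA2-positive libraries (red) left of the FOXA2-negative ones (dark). Points are libraries and lines are group means. No FOXA2-positive point reaches the lowest FOXA2-negative point of its treatment for any of the 10 genes, which were picked for lower levels in FOXA2-positive libraries.

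Aqp3 (ENSMUSG00000028435, chromosome 4, 41092722 to 41098183, minus strand, mm10) encodes aquaporin 3, a channel for water and glycerol found in many epithelia. It had the widest gap of the 10 genes in every treatment. It stood at 5.2, 7.02 and 9.6 CPM in the BMP4 FOXA2-positive libraries, against 98.1, 184 and 152 CPM in the BMP4 FOXA2-negative libraries. LDN gave 2.75 and 1.32 CPM in the FOXA2-positive libraries, against 165, 58 and 158 CPM in the FOXA2-negative libraries. In RA it stood at 0.774, 8.07 and 5.22 CPM in the FOXA2-positive libraries, against 89.4, 285 and 145 CPM in the FOXA2-negative libraries. The 2 fractions were at least 10.2-fold apart even between the highest FOXA2-positive and the lowest FOXA2-negative library of a treatment. The log2 fold change, FOXA2-positive over FOXA2-negative with its standard error (SE) from the fit over all genes, was -4.31 ± 0.69 in BMP4, -5.92 ± 0.93 in LDN and -5.18 ± 0.72 in RA. RA FOXA2-positive library 1 held 7 counts of Aqp3, so that value rests on few reads.

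Spp1 (ENSMUSG00000029304, chromosome 5, 104435118 to 104441050, plus strand) encodes osteopontin, a secreted phosphoprotein that binds integrins and CD44. Per kilobase of exon it was the scarcest of the 10 genes in FOXA2-negative libraries of all 3 treatments. It stood at 3.59, 1.57 and 4.17 CPM in the BMP4 FOXA2-positive libraries, against 42.5, 66.3 and 47.2 CPM in the BMP4 FOXA2-negative libraries. In LDN Spp1 read 1.61 and 3.85 CPM in the FOXA2-positive libraries, against 35.3, 18.5 and 39.2 CPM in the FOXA2-negative libraries. RA cells gave 1.11, 8.35 and 10.8 CPM in the FOXA2-positive libraries, against 26, 42.9 and 35.7 CPM in the FOXA2-negative libraries. Its log2 fold change was -4.05 ± 0.56 in BMP4, -3.52 ± 0.66 in LDN and -2.36 ± 0.52 in RA. Here BMP4, not LDN, had the widest gap, with a FOXA2-positive mean at 5.98% of the FOXA2-negative mean, against 8.81% in LDN and 19.4% in RA.

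Elf3 (ENSMUSG00000003051, chromosome 1, 135253575 to 135258568, minus strand) encodes an ETS transcription factor of epithelial cells. Its FOXA2-positive means lay close together, at 26.3 ± 3.79 CPM in BMP4, 26.1 ± 3.28 CPM in LDN and 24.5 ± 9.18 CPM in RA (SD, n = 3, 2 and 3). Elf3 stood at 26.1, 30.2 and 22.6 CPM in the BMP4 FOXA2-positive libraries, against 56.5, 106 and 91.8 CPM in the BMP4 FOXA2-negative libraries. LDN gave 23.8 and 28.4 CPM in the FOXA2-positive libraries, against 102, 96.6 and 187 CPM in the FOXA2-negative libraries. For RA the values were 24.7, 15.3 and 33.7 CPM in the FOXA2-positive libraries, against 94.6, 111 and 95 CPM in the FOXA2-negative libraries. One LDN FOXA2-negative library, at 187 CPM, lay far above the other FOXA2-negative libraries of all treatments. As log2 fold changes, the gaps of Elf3 were -1.69 ± 0.28 in BMP4, -2.30 ± 0.33 in LDN and -2.03 ± 0.28 in RA.

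Sfn (ENSMUSG00000047281, chromosome 4, 133600556 to 133602168, minus strand) encodes 14-3-3 sigma, the epithelial member of the 14-3-3 adaptor proteins and a target of p53. Sfn stood at 15.9, 8.59 and 18.8 CPM in the BMP4 FOXA2-positive libraries, against 97.9, 94.2 and 46.6 CPM in the BMP4 FOXA2-negative libraries. In LDN it read 8.14 and 9.03 CPM in the FOXA2-positive libraries, against 147, 118 and 147 CPM in the FOXA2-negative libraries. RA gave 12.4, 34 and 26.5 CPM in the FOXA2-positive libraries, against 110, 93 and 151 CPM in the FOXA2-negative libraries. LDN combined the lowest FOXA2-positive mean with FOXA2-negative values of at least 118 CPM, and its log2 fold change was the most negative of the 3. On the log2 scale Sfn differed by -2.46 ± 0.33 in BMP4, -4.0 ± 0.43 in LDN and -2.27 ± 0.33 in RA.

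Mylpf (ENSMUSG00000030672, chromosome 7, 127208890 to 127214298, plus strand) encodes the regulatory light chain of fast skeletal muscle myosin. It was among the 4 most abundant of the 10 genes per kilobase of exon in every group. Mylpf stood at 23.3, 23.7 and 44.3 CPM in the BMP4 FOXA2-positive libraries, against 192, 258 and 98 CPM in the BMP4 FOXA2-negative libraries. In LDN it was found at 20 and 19.7 CPM in the FOXA2-positive libraries, against 172, 118 and 180 CPM in the FOXA2-negative libraries. RA gave 31.6, 46 and 38.9 CPM in the FOXA2-positive libraries, against 237, 249 and 257 CPM in the FOXA2-negative libraries. RA FOXA2-negative libraries lay close together (highest over lowest 1.08), while BMP4 FOXA2-negative libraries spread 2.63-fold. Mylpf had log2 fold changes of -2.58 ± 0.29 in BMP4, -2.98 ± 0.35 in LDN and -2.67 ± 0.29 in RA.

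Gpx4 (ENSMUSG00000075706, chromosome 10, 80047166 to 80056439, plus strand) encodes a selenium enzyme that reduces lipid hydroperoxides in membranes and so protects cells from ferroptosis. It was the most abundant of the 10 genes in all 6 groups, both in CPM and per kilobase of exon. Gpx4 stood at 208, 242 and 222 CPM in the BMP4 FOXA2-positive libraries, against 377, 664 and 559 CPM in the BMP4 FOXA2-negative libraries. In LDN it stood at 179 and 164 CPM in the FOXA2-positive libraries, against 669, 515 and 717 CPM in the FOXA2-negative libraries. In RA it gave 164, 239 and 241 CPM in the FOXA2-positive libraries, against 593, 682 and 468 CPM in the FOXA2-negative libraries. The gap was moderate but the fractions stayed apart, by 1.56-fold or more between their nearest libraries. For Gpx4 the log2 fold change was -1.25 ± 0.19 in BMP4, -1.89 ± 0.22 in LDN and -1.44 ± 0.19 in RA.

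Chchd10 (ENSMUSG00000049422, chromosome 10, 75933130 to 75937747, plus strand) encodes a small protein of the mitochondrial intermembrane space. Its gap in RA was the smallest of any gene and treatment. Chchd10 stood at 118, 145 and 124 CPM in the BMP4 FOXA2-positive libraries, against 262, 515 and 278 CPM in the BMP4 FOXA2-negative libraries. LDN gave 106 and 88.5 CPM in the FOXA2-positive libraries, against 380, 228 and 367 CPM in the FOXA2-negative libraries. In RA the values were 135, 179 and 167 CPM in the FOXA2-positive libraries, against 268, 328 and 291 CPM in the FOXA2-negative libraries. The FOXA2-positive mean was 36.8% in BMP4, 30% in LDN and 54.3% in RA of the FOXA2-negative mean. As log2 fold changes these were -1.44 ± 0.22 in BMP4, -1.74 ± 0.25 in LDN and -0.88 ± 0.21 in RA.

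Fabp3 (ENSMUSG00000028773, chromosome 4, 130308595 to 130315463, plus strand) encodes the heart-type fatty acid binding protein, a carrier of long-chain fatty acids in the cytosol. Fabp3 stood at 10.7, 11.5 and 14 CPM in the BMP4 FOXA2-positive libraries, against 23.3, 85.9 and 70.7 CPM in the BMP4 FOXA2-negative libraries. In LDN it held 4.35 and 11.7 CPM in the FOXA2-positive libraries, against 29.6, 64.9 and 39.1 CPM in the FOXA2-negative libraries. RA gave 5.86, 9.1 and 13.2 CPM in the FOXA2-positive libraries, against 57.8, 95.4 and 37.5 CPM in the FOXA2-negative libraries. Its FOXA2-negative libraries varied 2.2-fold to 3.69-fold within a group, more than those of Mylpf or Hspb1 in RA and LDN. Fabp3 had log2 fold changes of -2.31 ± 0.46 in BMP4, -2.49 ± 0.55 in LDN and -2.76 ± 0.47 in RA.

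Hspb1 (ENSMUSG00000004951, chromosome 5, 135887919 to 135889563, plus strand) encodes a small heat shock protein, a chaperone that holds unfolding proteins and binds actin. Hspb1 stood at 58.1, 49.2 and 53.1 CPM in the BMP4 FOXA2-positive libraries, against 98.7, 170 and 93 CPM in the BMP4 FOXA2-negative libraries. LDN gave 41.7 and 38.6 CPM in the FOXA2-positive libraries, against 127, 144 and 134 CPM in the FOXA2-negative libraries. In RA Hspb1 read 68.3, 63.7 and 91.5 CPM in the FOXA2-positive libraries, against 222, 184 and 129 CPM in the FOXA2-negative libraries. The FOXA2-positive mean was 44.4% in BMP4, 29.7% in LDN and 41.8% in RA of the FOXA2-negative mean, the mildest gaps beside those of Gpx4 and Chchd10. In log2 fold changes Hspb1 had -1.17 ± 0.22 in BMP4, -1.75 ± 0.26 in LDN and -1.26 ± 0.22 in RA.

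Gadd45g (ENSMUSG00000021453, chromosome 13, 51846678 to 51848468, plus strand) encodes a small stress-induced protein that activates the p38 and JNK kinase cascade and slows cell division. Gadd45g stood at 18.8, 11.5 and 8.34 CPM in the BMP4 FOXA2-positive libraries, against 50, 40.1 and 38.9 CPM in the BMP4 FOXA2-negative libraries. In LDN it read 3.5 and 4.21 CPM in the FOXA2-positive libraries, against 56.5, 66.4 and 140 CPM in the FOXA2-negative libraries. In RA it read 1.55, 10.6 and 8.39 CPM in the FOXA2-positive libraries, against 48.8, 42.6 and 48.5 CPM in the FOXA2-negative libraries. LDN held both the lowest FOXA2-positive mean and the highest FOXA2-negative values, so its FOXA2-positive mean was 4.4% of the FOXA2-negative one, against 30% in BMP4 and 14.7% in RA. Its log2 fold changes were -1.74 ± 0.44 in BMP4, -4.51 ± 0.59 in LDN and -2.76 ± 0.46 in RA.

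Over the 10 genes the median log2 fold change was -2.03 in BMP4, -2.73 in LDN and -2.32 in RA, beside 0.00, -0.03 and 0.00 over all 17813 genes tested. For 8 of the 10 genes LDN had the most negative value, for Spp1 it was BMP4 and for Fabp3 RA. For 7 genes BMP4 had the least negative one. Whether the gap differed between treatments was not tested, since the genes were picked on these same contrasts. All 10 genes had every FOXA2-positive library below every FOXA2-negative one in all 3 treatments, an arrangement shown by 7.31% of genes tested in BMP4, 14.7% in LDN and 7.99% in RA. Nothing can be read from that contrast, which the choice fixed. At an adjusted p under 0.05 in edgeR, 0.601% of genes were called lower in FOXA2-positive libraries in BMP4, 0.707% in LDN and 0.82% in RA. These shares stand beside the other genes named below. Calls of the 10 genes themselves on this contrast are not counted, because the choice fixed their direction.

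The order of abundance also changed with the fraction. In CPM per kilobase of exon, Aqp3 was the 5th of the 10 genes in BMP4 FOXA2-negative (79.0 ± 23.7, SD, n = 3) and RA FOXA2-negative libraries (94.6 ± 55, n = 3) and the 7th in LDN FOXA2-negative ones (69.5 ± 32.8, n = 3). In FOXA2-positive libraries it was the 9th in BMP4 (3.98 ± 1.21, n = 3) and the last in LDN (1.11 ± 0.549, n = 2) and RA (2.56 ± 2.01, n = 3). The upper end of the order was stable, with Gpx4 first and Chchd10, Mylpf and Hspb1 in the next 3 places in all 6 groups. In RA FOXA2-negative libraries Gpx4 (337 ± 62.6 CPM per kilobase) lay above Mylpf (233 ± 9.47) and Mylpf above Chchd10 (188 ± 19.1) with no overlap between libraries, while Chchd10 and Hspb1 (173 ± 45.4) overlapped. Among FOXA2-positive libraries of RA, Chchd10 (102 ± 14.5) overlapped with both Gpx4 (124 ± 25.4) and Hspb1 (72.3 ± 14.5).

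Libraries of one group differed from each other in several of the 10 genes at once. RA FOXA2-positive library 1 lay below its group mean for 9 of 10 genes, by a median of -0.48 on the log2 scale, and library 3 of that group lay above it for all 10, by a median of 0.42. The low values of library 1 were largest for Aqp3, Spp1 and Gadd45g, whose highest library exceeded it 10.4-fold, 9.8-fold and 6.85-fold. This is the FOXA2-positive library with the highest mitochondrial share (7.43%), and the part of that difference in its low values was not tested. Without both RA libraries numbered 1 the log2 fold change in RA was -5.01 ± 0.58 for Aqp3, -2.03 ± 0.45 for Spp1 and -2.26 ± 0.40 for Gadd45g, and the median over the 10 genes was -2.05. LDN FOXA2-negative library 2 lay below its group mean for 8 genes, and BMP4 FOXA2-negative library 2 above it for 9. After each group's mean was removed, 41 of the 45 pairs of genes correlated positively over the 17 libraries, with a median Pearson r of 0.39. The highest r was 0.78 for Gpx4 and Chchd10 and the lowest -0.29 for Sfn and Elf3. These correlations are descriptions with no test.

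**Figure D2:**
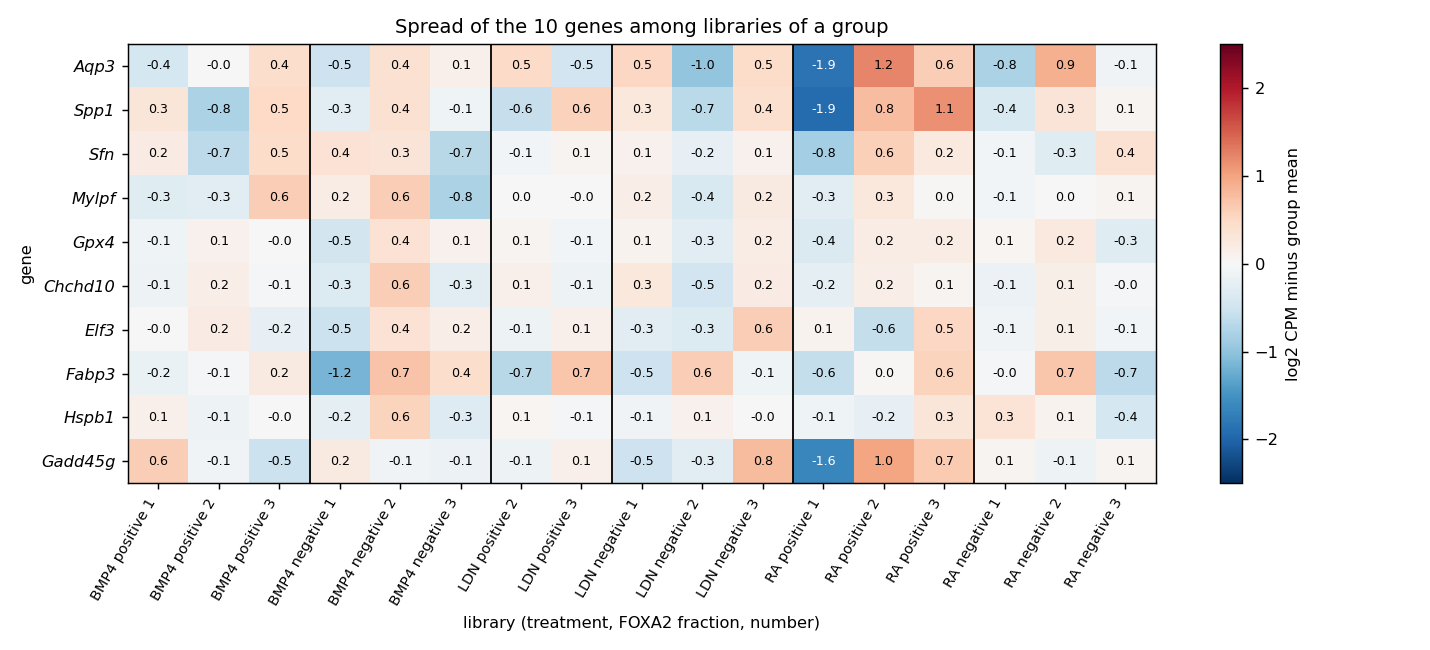
Log2 CPM of each gene (rows) minus its group mean in each of the 17 libraries (columns, FOXA2-positive before FOXA2-negative within a treatment, black lines between groups). Blue is below and red above the group mean. RA FOXA2-positive library 1 is blue for 9 of 10 genes, most strongly for Aqp3, Spp1 and Gadd45g.

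The treatments could be compared within a fraction, since the choice of genes was not made on these contrasts. It did use the same libraries and favoured low values in the FOXA2-positive ones, so comparisons among those are not independent of it. None of the 10 genes passed an adjusted p of 0.05 in edgeR's quasi-likelihood test in any of the 6 comparisons. In FOXA2-positive cells that threshold called 0.32% of all genes tested in BMP4 against LDN, 0.0786% in BMP4 against RA and 0.208% in LDN against RA. In FOXA2-negative cells it called 0.196%, 0.0786% and 0.0393%.

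BMP4 against LDN is the comparison of cells with the same hours in culture. In FOXA2-positive cells all 10 genes had a log2 fold change of 0.01 or more, with a median of 0.51, where 50.7% of all genes tested were higher in BMP4 and their median was 0.01. Gadd45g averaged 12.9 ± 5.36 CPM in BMP4 and 3.86 ± 0.502 CPM in LDN FOXA2-positive libraries (SD, n = 3 and 2; log2 fold change 1.74 ± 0.54, edgeR adjusted p = 0.308). It was the 1 gene of the 10 with an unadjusted p under 0.05, a mark met by 7.37% of all genes tested. Aqp3 averaged 7.27 ± 2.21 CPM in BMP4 and 2.03 ± 1.0 CPM in LDN (1.80 ± 0.87, adjusted p = 0.687). Elf3 differed least (0.01 ± 0.31). DESeq2 called none of the 10 there, and 1.19% of the genes it tested. With no filter on low counts edgeR called Aqp3 (1.81 ± 0.32, adjusted p = 5.57e-06) and Gadd45g (1.75 ± 0.37, adjusted p = 0.000585), a setting that called 196 genes over the whole table (0.73% of those it tested) in place of 57. Without both RA libraries numbered 1, which share in the model's estimate of spread, edgeR with the usual filter called Gadd45g (adjusted p = 0.0468).

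In FOXA2-negative cells BMP4 against LDN gave 5 genes on each side, with a median log2 fold change of -0.03. Gadd45g averaged 43.0 ± 6.12 CPM in BMP4 and 87.7 ± 45.9 CPM in LDN (n = 3 each; log2 fold change -1.03 ± 0.42, edgeR adjusted p = 0.67). Sfn averaged 79.5 ± 28.6 CPM in BMP4 and 137 ± 16.5 CPM in LDN (-0.79 ± 0.31, adjusted p = 0.649). Elf3 averaged 84.7 ± 25.4 CPM in BMP4 and 129 ± 50.7 CPM in LDN (-0.60 ± 0.27, adjusted p = 0.699). These 3 genes had an unadjusted p under 0.05, against 7.06% of all genes tested, and DESeq2 called none of the 10 and 0.836% of its genes. Gadd45g, Sfn and Elf3 thus had opposite signs in FOXA2-positive and FOXA2-negative cells, as had Gpx4 (0.38 and -0.25) and Hspb1 (0.41 and -0.17). That difference was not tested, because it is the same quantity as the difference between treatments in the gap that chose the genes.

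**Figure D3:**
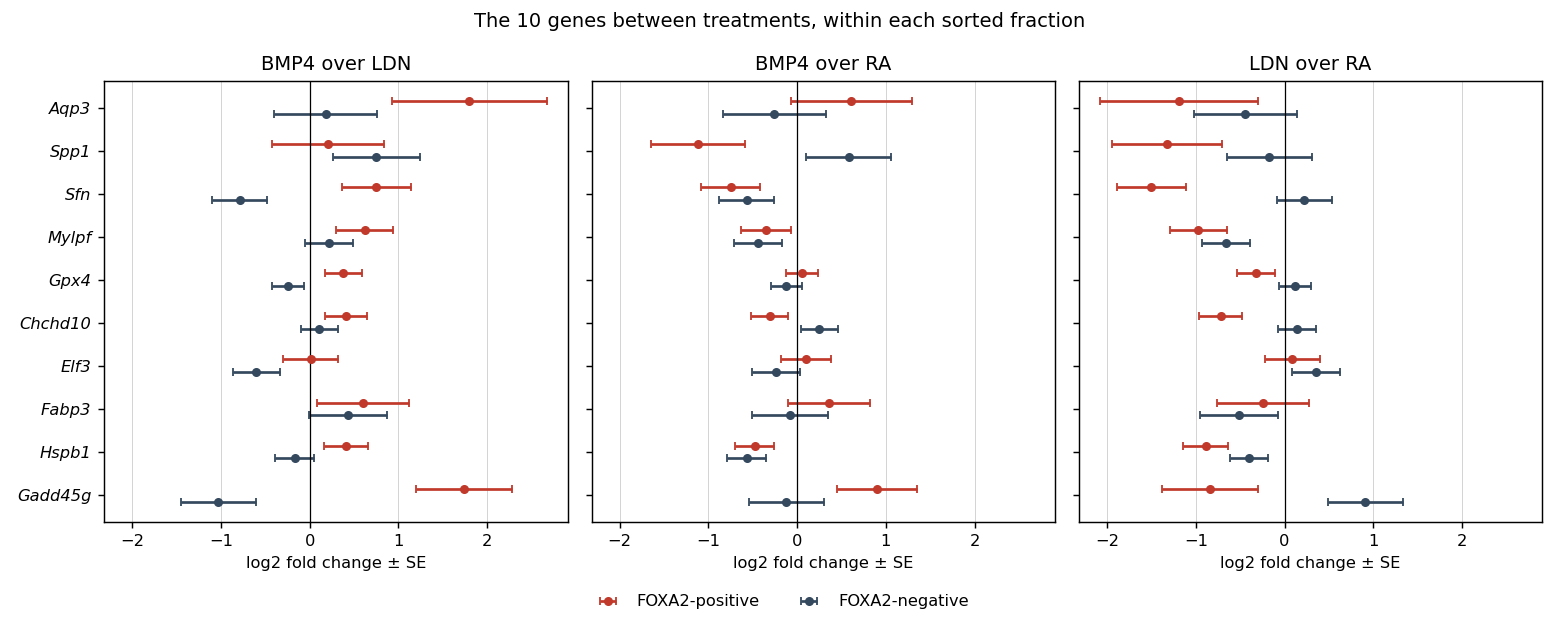
Log2 fold change between treatments (x axis, with its standard error) of the 10 genes (rows), for BMP4 over LDN, BMP4 over RA and LDN over RA, in FOXA2-positive (red) and FOXA2-negative libraries (dark). In FOXA2-positive libraries all 10 points lie at or right of 0 for BMP4 over LDN and 9 of 10 lie left of 0 for LDN over RA. No value passed the adjusted threshold.

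Against RA, where agent and time cannot be told apart, LDN over RA in FOXA2-positive cells gave mostly negative values. There 9 of 10 genes had a negative log2 fold change, with a median of -0.87 beside -0.05 over all genes tested. Sfn averaged 8.58 ± 0.627 CPM in LDN and 24.3 ± 11 CPM in RA (n = 2 and 3; -1.50 ± 0.39, edgeR adjusted p = 0.13). Hspb1 averaged 40.1 ± 2.13 CPM in LDN and 74.5 ± 14.9 CPM in RA (-0.89 ± 0.25, adjusted p = 0.163). Mylpf averaged 19.9 ± 0.166 CPM in LDN and 38.8 ± 7.17 CPM in RA (-0.97 ± 0.32, adjusted p = 0.281). For these 3 genes and for Chchd10 (-0.72 ± 0.24, adjusted p = 0.281) no LDN library reached the lowest RA library, an arrangement shown by 14.2% of all genes tested. With Spp1 (-1.33 ± 0.62, adjusted p = 0.518) they make 5 genes with an unadjusted p under 0.05, where 9.35% of all genes tested had one. DESeq2 called Sfn (-1.48 ± 0.40, adjusted p = 0.0284) and 1.5% of its genes. In edgeR, Sfn was called without RA FOXA2-positive library 1 (-1.82 ± 0.35, adjusted p = 0.0262) and without both RA libraries numbered 1 (-1.81 ± 0.35, adjusted p = 0.0199). With no filter on low counts edgeR called 5 genes, namely Sfn, Mylpf, Hspb1, Chchd10 and Aqp3, all lower in LDN, while over all genes that setting called 294 (1.1% of those it tested) in place of 37.

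BMP4 against RA in FOXA2-positive cells split the 10 genes evenly, 5 higher and 5 lower in BMP4 with a median of -0.13. Spp1 (-1.12 ± 0.53), Sfn (-0.75 ± 0.33) and Hspb1 (-0.48 ± 0.22), each with an edgeR adjusted p of 0.825, had an unadjusted p under 0.05, against 5.6% of all genes tested. Gadd45g went the other way (0.90 ± 0.45, adjusted p = 0.825). In FOXA2-negative cells the same comparison left Hspb1 alone under that mark (121 ± 42.8 CPM in BMP4 and 178 ± 46.8 CPM in RA, n = 3 each; -0.57 ± 0.22, adjusted p = 0.645), where 7.36% of all genes lay. LDN against RA in FOXA2-negative cells put Mylpf (-0.66 ± 0.27) and Gadd45g (0.91 ± 0.42), each with an adjusted p of 0.647, under it, beside 7.5% of all genes. DESeq2 called none of the 10 in these 3 comparisons, and called 0.325%, 0.466% and 0.219% of the genes it tested. Missing the threshold does not show that levels were equal, as the standard errors of the 10 genes ran from 0.18 to 0.89 over the 6 comparisons.

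The relatives of the 10 genes were compared between the fractions too. Of 109 other genes tested in the 15 lists of relatives and partners, 1 was called lower and 0 higher in FOXA2-positive cells of BMP4, 1 lower and 1 higher in LDN, and 1 lower and 0 higher in RA, by edgeR at an adjusted p under 0.05. Over all genes tested the share called higher was 0.32% in BMP4, 0.286% in LDN and 0.371% in RA, and the shares called lower are those given above. Of the 109 genes, 55 had a negative log2 fold change in BMP4, 55 in LDN and 56 in RA. DESeq2 called 2 lower and 1 higher in BMP4, 3 lower and 2 higher in LDN, and 2 lower and 1 higher in RA. Of the genes it tested, DESeq2 called 1.84% lower and 1.17% higher in BMP4, 2.52% and 1.04% in LDN, and 2.0% and 0.976% in RA. Nothing particular to the relatives is read from these counts.

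The other 14-3-3 genes lay close to no change beside the log2 fold changes of -2.46, -4.0 and -2.27 of Sfn. All 6 averaged at least 20 CPM, and their log2 fold changes ran from -0.04 to 0.26 in BMP4, from -0.02 to 0.36 in LDN and from 0.00 to 0.27 in RA, with adjusted p-values of 0.385 or more in edgeR. None was called by edgeR or DESeq2, with 0, 1 and 1 at an unadjusted p under 0.05 in BMP4, LDN and RA. That mark was met by 10.8% of all genes tested in BMP4, 11.2% in LDN and 10.7% in RA, the shares against which the counts for the other lists stand too. The genes that p53 is known to switch on, of which Sfn is one, had a median of -0.14 in BMP4, -0.06 in LDN and -0.15 in RA over the 14 others tested. Btg2, an antiproliferative gene of that list, was the one called, in RA, at 43.1 ± 12.9 CPM in FOXA2-positive libraries and 90.4 ± 23.4 CPM in FOXA2-negative libraries (SD, n = 3 each; -1.07 ± 0.24, edgeR adjusted p = 0.0191). Its call in RA was lost when FOXA2-positive library 1 (adjusted p = 0.125), FOXA2-negative library 2 (0.0886) or FOXA2-negative library 3 (0.114) was left out. A fit with replicate number as a block kept it (-1.08 ± 0.19, edgeR adjusted p = 0.00239). Btg2 read -0.10 ± 0.23 in BMP4 and -0.63 ± 0.27 in LDN (adjusted p = 0.964 and 0.358).

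The abundant relatives of Mylpf lay near no change. The light chains of smooth muscle and non-muscle myosin, Myl6, Myl12a and Myl12b, lay between 124 and 409 CPM in FOXA2-positive groups, and their log2 fold changes ran from -0.24 to 0.24 over the 3 treatments. Myl7, the atrial myosin light chain, was named after its values were seen. It stood at 1.78 ± 1.05 CPM in LDN FOXA2-positive libraries, against 9.43 ± 3.07 CPM in LDN FOXA2-negative ones (n = 2 and 3; -2.42 ± 0.62, edgeR adjusted p = 0.0546), and read 0.72 ± 0.47 in BMP4 and 0.25 ± 0.47 in RA (adjusted p = 0.605 and 0.963). DESeq2, edgeR with no filter on low counts, the fit without LDN FOXA2-negative library 2 and the fit with replicate number as a block (-2.34 ± 0.57, adjusted p = 0.0421) called Myl7 lower in LDN. Of 15 markers of skeletal and cardiac muscle, 8 had enough counts to be tested. By edgeR with the usual filter or by DESeq2, 0 were called in any treatment, with 1 at an unadjusted p under 0.05 in each. Their summed level was 18.8 to 24.6 CPM in BMP4 FOXA2-positive and 44.7 to 90.8 CPM in BMP4 FOXA2-negative libraries, 22.2 to 39.4 and 43.9 to 104 CPM in LDN, and 21.5 to 41.5 and 68.6 to 109 CPM in RA. Ttn, which makes the giant sarcomere protein titin and was singled out after its values were seen, stood at 8.92 ± 6.95 CPM in RA FOXA2-positive and 63.9 ± 24.4 CPM in RA FOXA2-negative libraries (-2.84 ± 1.01, edgeR adjusted p = 0.311). It read -3.04 ± 1.05 in BMP4 and -2.11 ± 1.15 in LDN (adjusted p = 0.29 and 0.506). With no filter on low counts edgeR called Ttn lower in all 3 treatments. The defining genes Myog, Myf6 and Tnnc2 were at 0 in all 6 groups.

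Gpx4 had a relative on the other side. Gpx3, which makes the secreted glutathione peroxidase, rose in LDN FOXA2-positive cells to 584 ± 32.3 CPM (n = 2), against 246 ± 63.7 CPM in LDN FOXA2-negative cells (n = 3; log2 fold change 1.25 ± 0.25, edgeR adjusted p = 0.0146). In BMP4 it read 488 ± 12.4 CPM in FOXA2-positive libraries, against 284 ± 73.1 CPM in FOXA2-negative ones (0.78 ± 0.23, adjusted p = 0.137), and 495 ± 128 and 283 ± 89.9 CPM in RA (0.80 ± 0.23, adjusted p = 0.113). Same-numbered RA libraries deviated together, and in a fit with replicate number as a block the value in RA was 0.82 ± 0.14 (adjusted p = 0.00119). Gpx1, the abundant cytosolic enzyme, had -0.41 ± 0.14 in BMP4, -0.51 ± 0.16 in LDN and -0.23 ± 0.14 in RA, with edgeR adjusted p-values of 0.209, 0.131 and 0.567. DESeq2 called Gpx1 lower in BMP4 and LDN, and Gpx3 higher in all 3 treatments. Of the 12 other genes of glutathione supply and ferroptosis control and the 7 of selenoprotein synthesis, 0 were called by edgeR with no block or by DESeq2 in any treatment. With the replicate block, Lpcat3 of the 12 was called higher in BMP4 (0.61 ± 0.15, edgeR adjusted p = 0.039). At an unadjusted p under 0.05 there were 2 of the 12 in each treatment, and of the 7 there were 0 in BMP4, 1 in LDN and 0 in RA. The call of Gpx3 in LDN was lost without FOXA2-positive library 2 (edgeR adjusted p = 0.135) or 3 (0.121) and without FOXA2-negative library 1 (0.0767) or 3 (0.074), with log2 fold changes from 1.13 to 1.30.

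The 11 other CHCHD and MICOS genes tested, many of which shape the mitochondrial inner membrane, varied around no change. Their medians were 0.07 in BMP4, -0.04 in LDN and 0.11 in RA. Chchd5 was called lower in BMP4, at 29.7 ± 6.43 CPM in FOXA2-positive libraries and 58.2 ± 5.82 CPM in FOXA2-negative libraries (-0.97 ± 0.24, edgeR adjusted p = 0.0481), and this call was lost whichever of the 6 BMP4 libraries was left out (adjusted p 0.0571 to 0.267). It had 0.29 ± 0.26 in LDN and -0.58 ± 0.24 in RA (adjusted p = 0.716 and 0.36). Chchd2, a close relative of Chchd10, read 0.15 ± 0.14 in BMP4, -0.29 ± 0.16 in LDN and 0.14 ± 0.14 in RA.

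Carriers related to Fabp3 had positive values. Crabp1 and Crabp2, which bind retinoic acid, had log2 fold changes from 0.41 to 1.30 over the 3 treatments. Crabp2 stood at 375 ± 44.5 CPM in RA FOXA2-positive and 240 ± 48.7 CPM in RA FOXA2-negative libraries (n = 3 each; 0.64 ± 0.19, edgeR adjusted p = 0.105), and with the replicate block it was called higher there (0.66 ± 0.12, adjusted p = 0.00244). Of the 4 relatives of Fabp3 tested, edgeR with the usual filter and no block called 0 in any treatment and DESeq2 called Crabp2 in LDN. At an unadjusted p under 0.05 there were 3 in BMP4, 1 in LDN and 4 in RA. The block called Crabp2 higher in LDN too (0.70 ± 0.15, edgeR adjusted p = 0.0124). With no filter on low counts edgeR called Crabp1 higher in all 3 treatments and Crabp2 in LDN and RA. Gadd45a, the relative of Gadd45g above 20 CPM, had 0.49 ± 0.23 in BMP4, -0.09 ± 0.26 in LDN and 0.08 ± 0.23 in RA.

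For Elf3 and Hspb1 the relatives were scarce. Elf2, the one ELF-type factor above 20 CPM beside Elf3, had 0.21 ± 0.29 in BMP4, -0.26 ± 0.33 in LDN and 0.04 ± 0.29 in RA. Elf4, at 0 in both LDN FOXA2-positive libraries and 2.80 ± 1.29 CPM in LDN FOXA2-negative libraries, was called lower there (edgeR adjusted p = 0.0496), a call lost under RLE scaling (adjusted p = 0.0513), without both RA libraries numbered 1 and without any 1 LDN library. Hspb11, which carries the name of the small heat shock family but works in cilia, had -0.49 ± 0.30, -0.08 ± 0.33 and -0.64 ± 0.30, and the large chaperones of the heat shock response had medians of -0.05, 0.02 and -0.02 over 11 genes in BMP4, LDN and RA. Of these 11, edgeR with no block called 0 and DESeq2 called Hspa1a in RA, with 2, 1 and 4 at an unadjusted p under 0.05. With the replicate block, Hsp90aa1 was called lower in BMP4 (-0.46 ± 0.12, edgeR adjusted p = 0.0489). Of 3 other aquaporins tested, 0 were called by either tool or at an unadjusted p under 0.05. Of 9 receptors and relatives of osteopontin, 0 were called by either tool, with 1, 0 and 0 at an unadjusted p under 0.05, and Itgb1, the integrin beta 1 subunit, had -0.30 ± 0.16, -0.13 ± 0.18 and -0.08 ± 0.16.

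**Figure D4:**
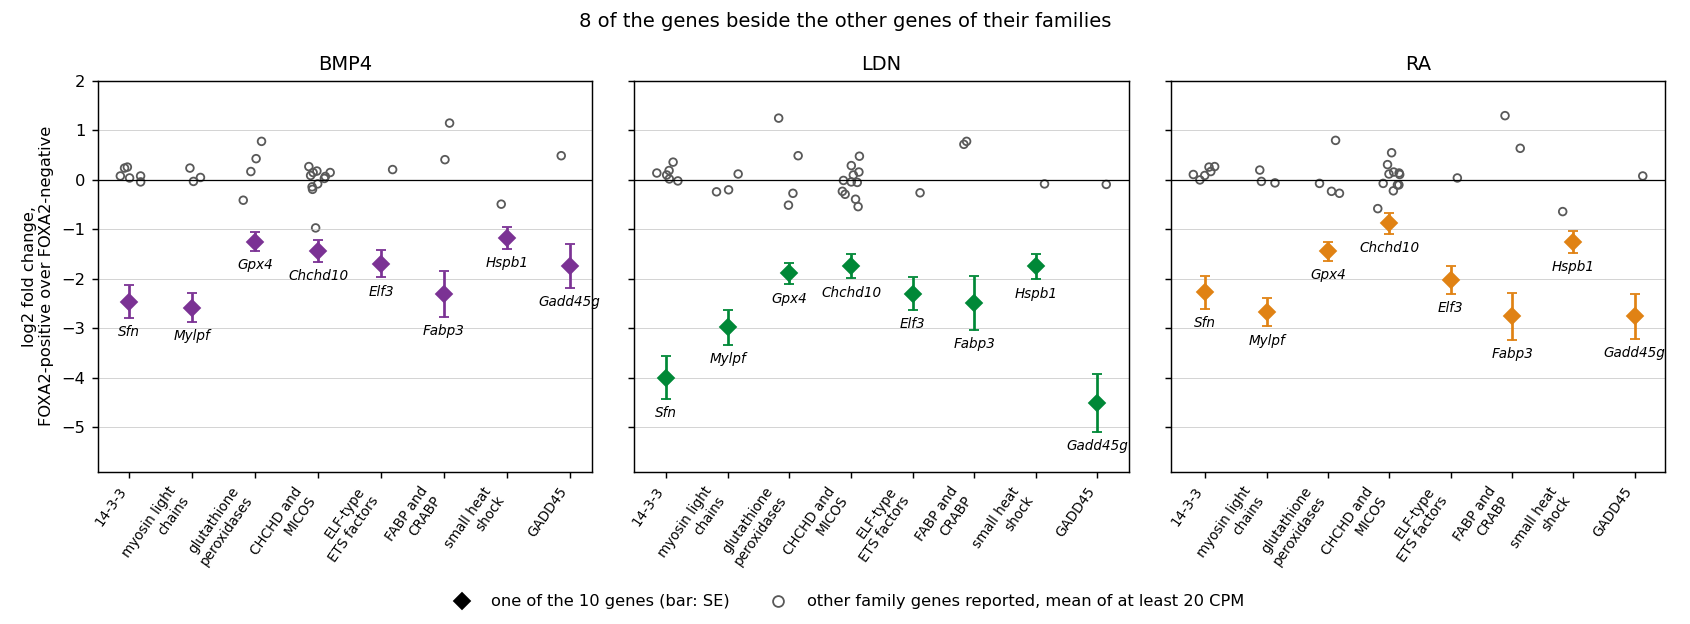
Log2 fold change, FOXA2-positive over FOXA2-negative, of 8 of the genes (diamonds, with standard error) and of other family genes reported here whose mean reached 20 CPM (open circles), for BMP4, LDN and RA. The 8 genes were picked for low values, so their place below the circles is given by the choice. Muscle markers such as Ttn and genes under 20 CPM such as Myl7 are not plotted, and the 14-3-3 circles lie between -0.04 and 0.36.

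Markers of other cell states differed between the fractions too, some lists in the direction of the 10 genes and others not. Their part in the values above was not tested. Of 18 markers of pluripotent cells, 6 were called lower in FOXA2-positive cells in BMP4, 8 in LDN and 5 in RA, and 0 higher. Their sums were 660 to 750 CPM in BMP4 FOXA2-positive and 930 to 1380 CPM in BMP4 FOXA2-negative libraries, 536 to 581 and 1010 to 1380 CPM in LDN, and 546 to 661 and 1210 to 1490 CPM in RA, and Nanog and Prdm14 were among the 4 at 0 in LDN FOXA2-positive libraries. Some calls of pluripotency markers were lost in other fits. Nanog in RA was lost without FOXA2-positive library 3 (edgeR adjusted p = 0.0554) or both libraries numbered 1 (0.0858). Fgf4 in BMP4 was lost without any 1 FOXA2-positive library (0.0563 to 0.0993) and Dppa5a without FOXA2-negative library 2 (0.105) or 3 (0.0738). Klf5 in LDN was lost under RLE scaling (0.0513), with the replicate block (0.184) and without FOXA2-negative library 1 (0.234). Of 9 trophectoderm markers, 1 was called lower in BMP4, 3 in LDN and 2 in RA, and of 13 surface ectoderm markers 0, 4 and 3. The 2 lists share Krt8, Krt18 and Gata3, which count in the calls and sums of both. Among the trophectoderm calls Tfap2c alone was not shared. Krt8 in RA was lost without FOXA2-positive library 1 (edgeR adjusted p = 0.12) or 2 (0.133), FOXA2-negative library 2 (0.156) or both numbered 1 (0.131). Cdh1 in RA was lost without FOXA2-positive library 2 (0.114) or 3 (0.0639) or FOXA2-negative library 1 (0.0567). Tfap2a in LDN was lost without FOXA2-negative library 2 (0.0605) or 3 (0.0622), and Krt8 (0.0571) and Krt18 (0.164) without the latter. Sums of the trophectoderm markers were 443 to 539 CPM in BMP4 FOXA2-positive and 393 to 425 CPM in BMP4 FOXA2-negative libraries, 213 to 247 and 467 to 642 CPM in LDN, and 164 to 238 and 294 to 394 CPM in RA. In BMP4 these sums were thus higher in FOXA2-positive libraries, where the 10 genes were lower. Single markers of the list differed there, as Tfap2c was called lower by edgeR. Krt18 was called higher in BMP4 by DESeq2 (0.58 ± 0.18, adjusted p = 0.0429) and with the replicate block (0.60 ± 0.14, edgeR adjusted p = 0.0255). Surface ectoderm markers summed to 733 to 876 CPM in FOXA2-positive libraries and to 867 to 903 CPM in FOXA2-negative libraries of BMP4, 509 to 585 and 912 to 1030 CPM in LDN, and 435 to 571 and 736 to 829 CPM in RA. Trp63 was at 0 in all FOXA2-positive groups and in the BMP4 FOXA2-negative group. Of 10 endoderm markers, Sox17 alone was called, higher in FOXA2-positive cells of LDN (2.54 ± 0.57, edgeR adjusted p = 0.0241) and RA (2.72 ± 0.56, adjusted p = 0.0101). Its call in LDN was lost without FOXA2-positive library 3 (0.282) and without any 1 FOXA2-negative library (0.0552 to 0.134), and that in RA without FOXA2-negative library 2 (0.0844) or both libraries numbered 1 (0.055). Of 8 neural progenitor markers, Cdh2 alone was called, higher in RA (1.58 ± 0.37, adjusted p = 0.0282), and this was lost without FOXA2-positive library 1 (0.199), FOXA2-negative library 2 (0.14) or 3 (0.134), or both numbered 1 (0.156). Of 8 floor plate markers, the one called was Foxa2, on whose reporter the cells were sorted.

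The genes whose log2 CPM followed each of the 10 most closely were found over the 17 libraries among 6487 named genes whose mean reached 20 CPM. The 20 nearest places were held by 15 genes, with Pearson r from 0.89 to 0.98. All of these r are taken over the same libraries and include the split between fractions. Aqp3 was closest to Pttg1, which makes securin (0.98), and Spp1 to the folate receptor gene Folr1 (0.96). Mylpf (0.96) and Hspb1 (0.92) were close to Zfp42, which makes the stem cell marker REX1, and Elf3 and Gpx4 (both 0.95) to Pou5f1, which makes OCT4. Fabp3 was closest to Nqo1, a quinone reductase (0.93), Chchd10 to Hsd17b14 (0.93), Sfn to Rpl10l (0.93) and Gadd45g to Tfap2c (0.93). After group means were removed, the r for Aqp3 with Pttg1 was still 0.91 and that for Spp1 with Folr1 0.86, while Gadd45g with Tfap2c had 0.12. Of the 15 genes 5 lie on chromosome 8, which holds 6.07% of the genes compared. The median log2 level of 407 chromosome 8 genes, relative to each gene's mean, was -0.26 to -0.04 over all FOXA2-positive libraries and 0.05 to 0.26 over all FOXA2-negative ones, and its part in this likeness was not tested. None of the 10 genes lies on chromosome 8.

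Promoter sequences are shown because the 10 genes share one pattern over the 6 groups. RefSeq windows of 300 bases (GRCm38.p6, from 250 bases before to 50 after the start) matched all 10 genes, with 14 windows. Of 11 motifs searched on both strands, the octamer ATGCAAAT, the sequence read by POU factors such as OCT4, was found in 4 of the 10 genes, where 1.97% of 27025 genes and 1.74% of 32817 windows hold it. The 250 bases before the start of these 4 genes are given 5′ to 3′ in lower case, with the octamer in capitals, as it stands or as its reverse complement.
Elf3, chr1:135258473-135258722, minus strand: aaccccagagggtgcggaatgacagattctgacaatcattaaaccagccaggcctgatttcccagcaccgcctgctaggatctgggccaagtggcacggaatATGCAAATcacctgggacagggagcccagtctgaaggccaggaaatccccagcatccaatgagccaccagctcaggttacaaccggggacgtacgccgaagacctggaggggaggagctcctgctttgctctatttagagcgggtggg
Spp1, chr5:104435942-104436191, plus strand: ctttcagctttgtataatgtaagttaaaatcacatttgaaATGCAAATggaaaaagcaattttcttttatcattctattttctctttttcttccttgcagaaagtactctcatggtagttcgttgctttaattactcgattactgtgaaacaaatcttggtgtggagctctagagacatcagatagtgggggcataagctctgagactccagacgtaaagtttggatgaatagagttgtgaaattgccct
Chchd10, chr10:75932880-75933129, plus strand: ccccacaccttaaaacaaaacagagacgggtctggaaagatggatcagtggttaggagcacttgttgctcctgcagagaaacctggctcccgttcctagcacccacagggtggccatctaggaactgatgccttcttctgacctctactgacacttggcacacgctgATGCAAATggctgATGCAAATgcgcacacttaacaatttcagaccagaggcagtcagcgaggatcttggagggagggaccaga
Gadd45g, chr13:51846425-51846674, plus strand: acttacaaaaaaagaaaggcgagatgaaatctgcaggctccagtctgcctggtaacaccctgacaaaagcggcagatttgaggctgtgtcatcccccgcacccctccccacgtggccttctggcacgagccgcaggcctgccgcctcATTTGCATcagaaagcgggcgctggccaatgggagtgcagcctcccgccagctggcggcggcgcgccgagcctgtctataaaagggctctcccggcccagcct
The octamer begins at -148 in Elf3, at -210 from the second of 2 starts of Spp1, at -83 and -70 in Chchd10 and, as the reverse complement, at -103 in Gadd45g. The Spp1 stretch lies inside the annotated gene (104435118 to 104441050), and the window at its first start holds no octamer. A match is a string of letters and not a shown binding site. The other 6 genes hold no octamer in their windows, and their FOXA2-positive means ran from 1.6% to 44.4% of the FOXA2-negative ones, against 4.4% to 54.3% for the 4 genes with it.

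The FOXA motif TGTTTAC was in 0 of the 10 genes (4.05% of all genes hold it), as were the ESRRB motif AAGGTCA (5.38%) and the heat shock element (0.662%), although Hspb1 is a heat shock gene. The CCAAT box was in 5 genes (41.1%), the CACCC box CCACCC in 5 (34.0%), the GC box GGGCGG in 3 (38.2%), the AP-2 motif GCCNNNGGC in 3 (18.5%), the TATA box TATAAA in 3 (15.7%), the SOX motif ACAAAG in 2 (21%) and the ETS motif CCGGAA in 1 (16.7%). No match says only that these letters are not in the window.

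Some counts may include reads of another gene. Gpx4-ps2 is 99.7% identical to Gpx4 over 733 bases and held 5068 counts beside 67666 for Gpx4, and its log2 fold changes of -1.21 in BMP4, -1.54 in LDN and -1.24 in RA lay near those of Gpx4. Copies of Hspb1 (Gm9817 and Hsp25-ps1, both 99.8%), Fabp3 (Fabp3-ps1, 99.3% over 402 bases) and Sfn (Gm7850, 97.5%) held 1, 21, 223 and 3 counts. Chchd10 shares 155 exon bases with Mmp11 on the opposite strand (2405 counts beside 38821 for Chchd10), and Fabp3 shares 81 with Zcchc17 (25377 counts beside 5756). As the strand setting of the counting is not given in the sources used here, reads in these stretches cannot be told apart.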

How the data were processed

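Each of the 17 libraries (SMART-Seq v2, mouse) has a table of raw counts per gene that the authors deposited, with no normalization. Per the submitters' processing notes the tools were UMI-tools 1.0.0, cutadapt 1.18, HTSeq 0.11.2 and DESeq2 1.26.0 and the build mm10. No source used here gives the aligner, annotation or strand setting. The summary lines at the end of each table (49.3% to 54.4% of its total) were left out. Gene names and positions came from the GENCODE M21 annotation.

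The fit was edgeR 4.0.16 (R 4.3.3) with TMM scaling, the filterByExpr filter (minimum count 10, minimum total 15), 1 robust quasi-likelihood fit over 6 groups and 17813 genes (11 residual degrees of freedom) and Benjamini-Hochberg adjustment at 0.05. The SE of a log2 fold change is its size over the square root of the F statistic. The test was checked on simulated data. In RA between fractions it called 58 of 100 genes changed by 1 on the log2 scale and 96 of 100 changed by 2. For LDN against RA in FOXA2-positive cells it called 48 and 95 of 100. Unchanged genes called were 11 and 5. The changed genes had means of at least 20 CPM before the change, so scarcer genes were not covered. Alternatives were DESeq2 1.42.0, RLE scaling, no filter, a replicate block, each library left out and both RA libraries numbered 1 left out. Deviations of same-numbered libraries correlated by 0.587, 0.238 and 0.277 in RA, over the limit of 0.1 for pairing, and by 0.079 or less in BMP4 and LDN. Values on shared controls are given side by side.

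The genes and the gene lists were chosen with earlier results of these data known. Besides the 10 genes, the text names listed genes called in at least 1 contrast between fractions, family genes whose mean reached 20 CPM, markers at 0, and the 2 genes most like each in log2 CPM (prior count 2). Near-identical copies were sought with blastn 2.17.0 (at least 90% identity over 200 bases). The precision of low values is limited by counts, and a difference in time and agent against RA cannot be told apart. One LDN FOXA2-positive library, numbered 1, was not analysed here, and 2 listed genes are not reported here.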

Additional observations from a re-analysis of the deposited data

Results flagged for a closer look

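Gadd45g had log2 fold changes of opposite sign between BMP4 and LDN in the 2 fractions, and neither passed the adjusted threshold. In FOXA2-positive cells it read 8.34 to 18.8 CPM in BMP4 and 3.5 and 4.21 CPM in LDN, with a log2 fold change of 1.74 ± 0.54 (edgeR adjusted p = 0.308). In FOXA2-negative cells it read 38.9 to 50 CPM in BMP4 and 56.5 to 140 CPM in LDN, with a log2 fold change of -1.03 ± 0.42 (edgeR adjusted p = 0.67). The difference between the 2 fractions was not tested. It is the same quantity as the difference between treatments in the gap that chose the genes.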

How the results depend on the processing

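Each of the 10 genes kept its direction between fractions in all 320 recomputed values. The genes were picked for this direction and their fractions did not overlap, so these values are no independent support. Of 32 medians over the 10 genes, 31 stayed within the spread, the exception being LDN without FOXA2-positive library 3. With 1 LDN library left out the median was -3.17 to -2.57. The number of genes called moved with the method in every comparison. Between fractions, DESeq2 called 477 in BMP4, 546 in LDN and 487 in RA, and no filter on low counts 411, 460 and 466, in place of 164, 177 and 212. The replicate block called 282 in BMP4 and 362 in RA, and without both RA libraries numbered 1 RA had 109. Leaving out 1 library gave 61 to 165 in BMP4, 66 to 163 in LDN and 105 to 219 in RA. Between treatments in FOXA2-positive cells, DESeq2 called 189 (BMP4 against LDN), 55 (BMP4 against RA) and 230 (LDN against RA) and no filter 196, 100 and 294, in place of 57, 14 and 37. With 1 library left out these were 32 to 55, 7 to 15 and 10 to 35. In FOXA2-negative cells the same comparisons had 137, 74 and 45 by DESeq2 and 141, 94 and 83 with no filter, in place of 35, 14 and 7, and 25 to 36, 5 to 9 and 4 to 11 with 1 library left out. The block called 6 for BMP4 against RA there. Without both RA libraries numbered 1, BMP4 against RA had 9 in each fraction and BMP4 against LDN 53 in FOXA2-negative cells. The causes of these shifts were not tested.

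Of the 10 genes, no filter called 2 in BMP4 against LDN and 5 in LDN against RA in FOXA2-positive cells, DESeq2 called 1 in LDN against RA, omission of both RA libraries numbered 1 called 1 in each, and leaving out 1 library called 0 to 1 in LDN against RA. Signs reversed for 3 other genes named above. Elf4 in BMP4 (0.00) had -0.01 with DESeq2, RLE scaling and no filter and -0.51 to 0.66 with 1 library left out, and -1.3 to 0.26 in RA, in place of -0.87. With 1 library left out Btg2 in BMP4 had -0.27 to 0.13 and Krt8 in BMP4 -0.04 to 0.51. Groups held 2 or 3 libraries, and Aqp3 as few as 7 counts in one, which limits precision.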
